A study of Homo sapiens with 4 samples.

Results

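ASTN1, JAKMIP2, RORB, PDE4D, CLMP, EDIL3 and PRKG1 are 7 protein-coding genes that were chosen by their measured levels in these libraries: CPM, the read count of a gene scaled to the library total, was higher in each tKO library than in each dKO library. They are 7 of 15136 genes with enough reads to be tested. The way they were chosen sets their direction, and their levels are therefore given as a description with no test. Of all tested genes, 2290 (15.1%) had the same order of levels and 2469 (16.3%) had the opposite order. When a log2 difference above 1 was also asked for, 110 genes (0.727%) remained on the higher side and 115 (0.76%) on the lower side, and all 7 genes were among the 110. The 7 were grouped as neural genes, and how they were taken from the 110 is not given in the sources used here.

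Transcription was measured by stranded RNA-seq of polyadenylated RNA in untreated HAP1 cells, a nearly haploid human line derived from a leukaemia. The dKO group (2 libraries) lacks RING1A and RING1B, the enzymes of Polycomb repressive complex 1 (PRC1) that ubiquitinate histone H2A, and the tKO group (2 libraries) carries in addition an inactivated BAP1, the enzyme that removes this ubiquitin. RING1A and BAP1 were interrupted by a STOP cassette and cells were taken from picked clones, whereas cells without RING1B were obtained commercially. The study asked whether BAP1 still acts on transcription when PRC1 cannot mark H2A, and both groups share the loss of RING1A and RING1B.

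Polycomb complexes keep many developmental genes silent outside the tissue in which they work, and genes of the nervous system are prominent among them. ASTN1 encodes astrotactin 1, a neuronal surface protein that binds migrating neurons to glial fibres. JAKMIP2 encodes a coiled-coil protein related to a Janus kinase and microtubule partner and is transcribed mainly in brain. RORB is an orphan nuclear receptor that marks neurons of the cortical input layer and is needed in the retina. The others have roles beyond neurons. PDE4D degrades cyclic AMP, PRKG1 is a kinase switched on by cyclic GMP, CLMP is an adhesion protein of cell junctions that is needed for growth of the intestine, and EDIL3 is a secreted matrix protein that binds integrins through an RGD motif.

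Libraries held between 16054590 and 18455410 counts in genes, so the limit of detection, set here at 3 counts, lay between 0.163 and 0.187 CPM. BAP1 itself had 111 and 112 CPM in dKO and 9.63 and 6.66 CPM in tKO (limma log2 fold change -3.77, adjusted p = 0.0065). RNF2, which encodes RING1B, was at 77.0 and 86.8 CPM in dKO and at 76.9 and 68.6 CPM in tKO (log2 fold change -0.17, limma adjusted p = 0.996), and RING1, which encodes RING1A, had between 12 and 17 counts per library. The tKO libraries stood apart from each other. Among 11475 genes with a mean CPM above 5, 350 were over 2-fold apart between tKO 1 and tKO 2 and 4 between dKO 1 and dKO 2. Genes at the start of chromosome 10 were low in tKO 1 (median log2 ratio to dKO -0.97 over 126 genes ending before 38 Mb) and genes at the start of chromosome 3 were low in tKO 2 (median -0.92 over 357 genes ending before 57 Mb). None of the 7 genes lies in either stretch.

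RefSeq promoter windows, which run from 250 bases before to 50 bases after an annotated start (build GRCh38.p14), were found for 6 of the 7 genes, with 16 windows in all. CLMP had no entry. The windows of the 3 genes with the largest differences (ASTN1, EDIL3 and JAKMIP2) and the first window of RORB are shown because the bases C and G in a row (CpG), at which Polycomb complexes gather when they are dense, could be read from them. Each is written 5′ to 3′ in the direction of the gene, and the capitals mark every CpG.
ASTN1, chr1:177164663-177164962 (minus strand): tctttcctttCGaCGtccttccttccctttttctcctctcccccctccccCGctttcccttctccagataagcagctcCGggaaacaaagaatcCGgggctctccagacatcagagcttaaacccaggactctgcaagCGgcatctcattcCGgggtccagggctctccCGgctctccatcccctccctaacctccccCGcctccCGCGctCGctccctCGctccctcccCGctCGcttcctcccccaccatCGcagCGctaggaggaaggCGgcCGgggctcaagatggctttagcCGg
EDIL3, chr5:84384818-84385117 (minus strand): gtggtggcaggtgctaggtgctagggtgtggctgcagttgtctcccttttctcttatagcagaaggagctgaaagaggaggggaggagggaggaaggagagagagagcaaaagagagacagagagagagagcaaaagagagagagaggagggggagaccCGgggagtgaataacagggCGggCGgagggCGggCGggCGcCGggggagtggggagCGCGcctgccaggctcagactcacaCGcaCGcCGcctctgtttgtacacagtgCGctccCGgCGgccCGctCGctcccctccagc
JAKMIP2, chr5:147782679-147782978 (minus strand): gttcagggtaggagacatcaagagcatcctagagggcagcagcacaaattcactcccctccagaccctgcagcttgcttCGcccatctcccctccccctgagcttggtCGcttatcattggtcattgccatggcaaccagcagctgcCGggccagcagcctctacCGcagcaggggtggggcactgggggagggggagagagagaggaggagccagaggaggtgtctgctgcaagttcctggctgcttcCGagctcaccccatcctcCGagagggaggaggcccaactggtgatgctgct
RORB, chr9:74497085-74497384 (plus strand): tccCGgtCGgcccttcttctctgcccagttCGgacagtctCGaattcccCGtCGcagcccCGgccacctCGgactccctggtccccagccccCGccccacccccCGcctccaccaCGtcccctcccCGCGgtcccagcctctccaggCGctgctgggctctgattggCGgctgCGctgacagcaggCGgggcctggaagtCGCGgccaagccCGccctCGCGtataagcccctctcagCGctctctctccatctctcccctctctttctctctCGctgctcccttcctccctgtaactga

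The number of CpG in these 4 windows was 20 for ASTN1, 17 for EDIL3, 6 for JAKMIP2 and 24 for RORB. The median of 16081 windows of tested genes was 25. Of the 16 windows of the 6 genes, 15 held fewer CpG than this median, and the exception was window 2 of PDE4D with 32. Window 2 of EDIL3 (84384831 to 84385130) covers most of the same bases as window 1, so the 16 windows are not separate observations. PDE4D has 8 annotated windows, with between 2 and 32 CpG, and counts per gene do not tell which of them was in use. PRKG1 had 21 CpG in its first window and 0 in its second.

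The GC box GGGCGG, searched on both strands, occurred in 4 of the 16 windows (3 of the 6 genes: RORB, PDE4D and EDIL3), against 66.1% of all windows of tested genes. Both overlapping windows of EDIL3 are among the 4. TATAAA was found in 0 of the 16 windows and in 6.3% of all windows. TGACGT, part of the cyclic AMP response element, was found in 0 of 16 and in 10.3% of all. AGGTCA, the core of the element bound by nuclear receptors of the RORB type, was found in 1 window, of PDE4D, and in 9.96% of all. A missing match says only that these letters were not in the window.

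EDIL3 (ENSG00000164176.8, GRCh37 chromosome 5, 83236373 to 83680698, minus strand) had the largest log2 difference of all tested genes. The dKO libraries held 1 and 0 of its reads, tKO 1 held 48 and tKO 2 held 303. Its level was 0.0542 CPM in dKO 1, under 0.167 CPM in dKO 2, 2.92 CPM in tKO 1 and 18.9 CPM in tKO 2. Both dKO libraries were thus under the limit of detection, and tKO 2 was well above tKO 1. The ratio of the summed tKO counts to the summed dKO counts, scaled to library totals, was 394 with a 95% interval of 70.3 to 15606. This interval is wide because it rests on 1 dKO count, and like the other intervals here it covers counting error only. The fitted log2 difference of 5.76 depends on the prior count and is no bound.

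ASTN1 (ENSG00000152092.11, chromosome 1, 176826438 to 177134109, minus strand) was nearly as low in dKO. It had 3 and 4 counts in the dKO libraries, or 0.163 and 0.222 CPM. In tKO 1 it had 84 counts, or 5.12 CPM, and in tKO 2 it had 355 counts, or 22.1 CPM. The log2 difference was 5.14, the third largest among tested genes, and the ratio of summed counts was 70.4 (95% counting interval 33.9 to 176).

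JAKMIP2 (ENSG00000176049.11, chromosome 5, 146965001 to 147162338, minus strand) was at 0.65 and 1.22 CPM in dKO, from 12 and 22 counts. It was at 7.49 CPM in tKO 1 and 19.8 CPM in tKO 2. Its log2 difference of 3.61 was the fourth largest. In these 3 genes the order of the tKO libraries was the same, with tKO 2 above tKO 1 by 6.45-fold for EDIL3 (95% counting interval 4.75 to 8.94), 4.32-fold for ASTN1 (3.4 to 5.55) and 2.64-fold for JAKMIP2 (2.14 to 3.28).

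RORB (ENSG00000198963.6, chromosome 9, 77112251 to 77308093, plus strand) was read at 3.74 CPM in dKO 1, 6.84 CPM in dKO 2, 49.2 CPM in tKO 1 and 30.6 CPM in tKO 2. In this gene tKO 1 was the higher of the tKO libraries, and the dKO libraries themselves were 1.83-fold apart (95% counting interval 1.35 to 2.49). Averaged over dKO the level was 5.29 ± 2.19 CPM (SD, n = 2). Averaged over tKO it reached 39.9 ± 13.1 CPM (SD, n = 2), and the groups lay 2.92 apart on the log2 scale.

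PDE4D (ENSG00000113448.12, chromosome 5, 58264865 to 59817947, minus strand) followed the same order of libraries as RORB, at 1.46 and 1.72 CPM in dKO, 10.8 CPM in tKO 1 and 7.10 CPM in tKO 2. Its log2 difference was 2.38. For RORB the level in tKO 2 was 0.623 times that in tKO 1 (0.556 to 0.698) and for PDE4D it was 0.658 times (0.516 to 0.838), so that these 2 genes ran opposite to the other 5 in the size of the tKO levels. Whether the libraries differ in the share of cells that transcribe a gene or in the RNA per cell cannot be told apart in bulk samples.

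PRKG1 (ENSG00000185532.10, chromosome 10, 52750648 to 54058183, plus strand) was at 2.38 and 3.28 CPM in dKO, 9.99 CPM in tKO 1 and 20.4 CPM in tKO 2, with a log2 difference of 2.31. CLMP (ENSG00000166250.7, chromosome 11, 122940580 to 123065956, minus strand) had the smallest log2 difference of the 7, at 1.66, and the closest replicates. Its level was 6.94 and 6.95 CPM in dKO, 19.4 CPM in tKO 1 and 25.2 CPM in tKO 2. Level in dKO and size of the difference ran in opposite order at the extremes of the group, CLMP being the most and EDIL3 the least transcribed in dKO. The difference is the tKO level minus the dKO level, so this order is partly built in.

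**Figure D1:**
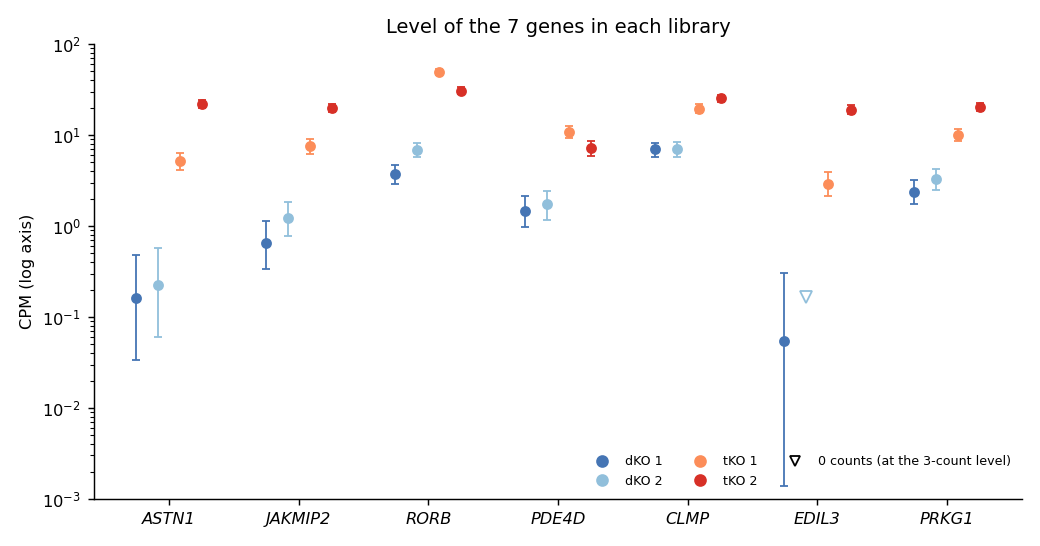
CPM (log axis) of each gene in dKO 1, dKO 2, tKO 1 and tKO 2, with bars for the 95% Poisson counting interval of each library and an open triangle for 0 counts, drawn at the level of 3 counts. The dKO points of EDIL3 and ASTN1 lie below 0.3 CPM and those of CLMP near 7 CPM, while tKO levels lie between 2.92 and 49.2 CPM.

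The gap between the lower tKO and the higher dKO library, on the log2-CPM scale, ran from 1.48 for CLMP to 4.17 for EDIL3. By this gap EDIL3 ranked 1, ASTN1 2, JAKMIP2 5, RORB 8, PDE4D 9, PRKG1 12 and CLMP 15 among tested genes. The 7 genes were therefore far from the edge of the rule that chose them. This gap is taken from the same levels that the rule used and is a description only. Of genes with a log2 difference above 1, the nearest inside the rule was ISM1 (1.25 and 1.28 CPM in dKO, 1.28 and 6.98 CPM in tKO) and the nearest outside was ADHFE1 (0.217 and 0.723 CPM in dKO, 0.67 and 1.49 CPM in tKO).

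**Figure D2:**
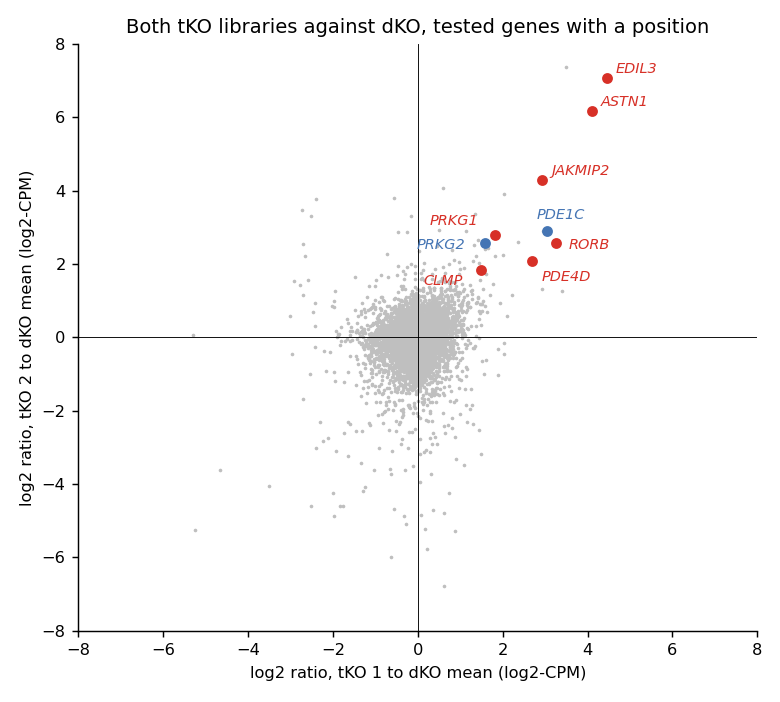
Log2 ratio of tKO 1 (horizontal) and of tKO 2 (vertical) to the dKO mean, on the log2-CPM scale, for the tested genes with a known position (grey), the 7 genes (red), and PRKG2 and PDE1C (blue). PRKG2 and PDE1C each had the largest log2 fold change of a gene list examined below, so their place here is a description only. All 9 named genes lie in the upper right part, with EDIL3 and ASTN1 farthest out and CLMP nearest to the centre among the red points.

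Divided by the length of the canonical transcript, levels can be compared between genes. In dKO the order was CLMP (1.38 CPM per kb), RORB (0.552), PRKG1 (0.428), PDE4D (0.195), JAKMIP2 (0.102), ASTN1 (0.027) and EDIL3 (0.00563). Only RORB and PRKG1 overlapped between libraries among neighbours in this order. In tKO the order was CLMP (4.44 CPM per kb), RORB (4.17), PRKG1 (2.29), EDIL3 (2.26), ASTN1 (1.91), JAKMIP2 (1.49) and PDE4D (1.10). Here every pair of neighbours overlapped except RORB and PRKG1. Even in tKO the genes remained modestly transcribed, between the 9.35 and 39.1 percentile of tested genes by CPM per kb, against 18.3 at most in dKO.

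The rule on levels did not use the length of the genes. The 7 were also grouped as neural genes, and whether that grouping is tied to length was not tested. PDE4D spans 1553 kb, PRKG1 1308 kb, EDIL3 444 kb, ASTN1 308 kb, JAKMIP2 197 kb, RORB 196 kb and CLMP 125 kb. The median span of 14759 tested genes with a position was 29.5 kb, and 14.8% of them were longer than CLMP, the shortest of the 7. PDE4D was the tenth longest of these genes. Processed transcripts took up between 0.506% (PRKG1) and 4.89% (RORB) of the span, so most of each gene is intron.

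Long genes as a class were not shifted upwards. Of 618 tested genes over 300 kb, 12.0% were higher in both tKO libraries and 18.6% lower, with a median log2 difference of -0.03, against -0.00137 over all tested genes. The share above a log2 difference of 1 in the higher direction was larger among them, with 20 of 618 (3.24%) higher and 8 (1.29%) lower. Over all tested genes these shares were 0.727% and 0.76%. By span the higher share was 0.949% under 10 kb, 0.292% from 10 to 30 kb, 0.247% from 30 to 100 kb and 1.21% from 100 to 300 kb. These counts include the 7 genes and are a description.

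**Figure D3:**
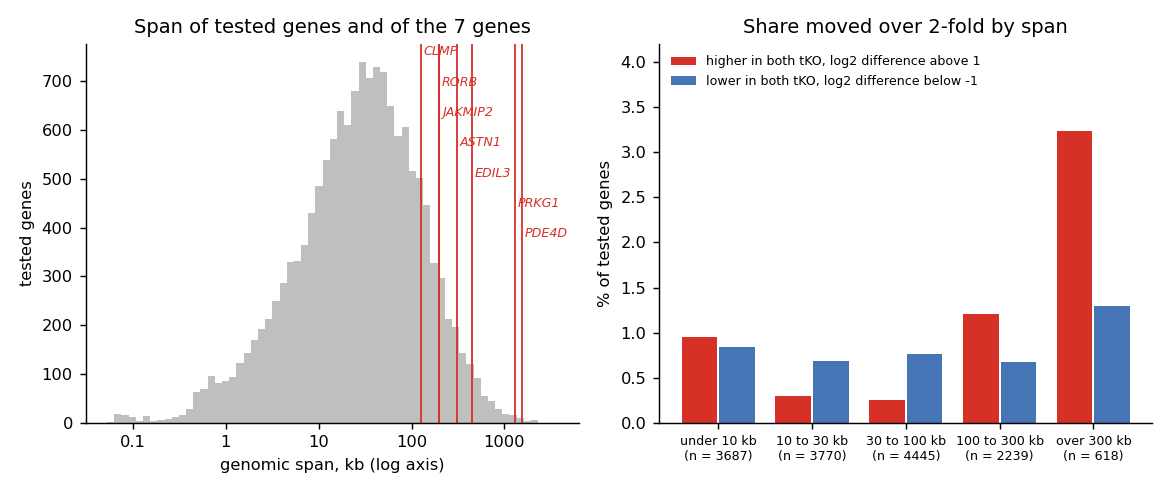
Left, number of tested genes by genomic span (log axis, kb), with red lines at the spans of the 7 genes. Right, percentage of tested genes in each span class that were higher in both tKO libraries with a log2 difference above 1 (red) or lower in both with a log2 difference below -1 (blue), where the highest bar is 3.24% for higher genes over 300 kb.

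Close relatives of the 7 genes were examined next, as a list of 15 genes of the same families. None of the 9 that could be tested passed the thresholds of limma (0 called, against 0.0132% of tested genes), 1 had an unadjusted p-value below 0.05 (against 3.55%), and edgeR called 0 (against 0.00661%). With DESeq2 1 was called, against 0.165% of tested genes. This gene was PRKG2, the other kinase activated by cyclic GMP. PRKG2 had 40 and 45 counts in dKO, 117 in tKO 1 and 232 in tKO 2, or 2.17, 2.5, 7.13 and 14.5 CPM, so the tKO libraries were above both dKO libraries and in the same order as for PRKG1. On the log2 scale it was 2.08 ± 0.35 SE higher in tKO (limma adjusted p = 0.458, edgeR quasi-likelihood adjusted p = 0.441, DESeq2 adjusted p = 0.000839).

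PRKG1 and PRKG2 were close to equal per length in every library. PRKG1 made up 45.0% and 49.4% of their summed CPM per kb in dKO and 51.1% and 51.2% in tKO. In the other families the share shifted towards the chosen gene, as its choice implies. RORB made up 13.3% and 21.5% of the ROR family in dKO and 69.4% and 54.7% in tKO, while RORA stayed between 2.26 and 2.65 CPM per kb (log2 fold change -0.06 ± 0.14 SE).

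PDE4A, the most abundant of the cyclic AMP phosphodiesterases of this family here, was between 2.71 and 3.22 CPM per kb in all libraries (log2 fold change -0.12 ± 0.17 SE). PDE4D made up 5.63% and 5.79% of the family in dKO and 30.9% and 22.8% in tKO. PDE4C had between 7 and 20 counts (log2 fold change -0.17 ± 0.50 SE) and PDE4B between 0 and 4 counts per library.

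ASTN2, which sets how much ASTN1 reaches the cell surface, was between 14.0 and 19.4 CPM (log2 fold change 0.20 ± 0.18 SE). ASTN1 made up 1.11% and 1.22% of the pair per length in dKO and 23.1% and 52.3% in tKO. JAKMIP1 was at 0 counts in all libraries, and JAKMIP3 had between 4 and 7 counts per library. MFGE8, the relative of EDIL3 that bridges dying cells and phagocytes, was between 37.2 and 44.2 CPM (log2 fold change -0.04 ± 0.13 SE) and exceeded EDIL3 in each library.

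The relatives of CLMP gave no common direction. CXADR, a virus receptor of cell junctions, had 67.5 and 69.7 CPM in dKO, 66.0 CPM in tKO 1 and 46.8 CPM in tKO 2 (log2 fold change -0.30 ± 0.18 SE). IGSF11 was at 5.09 and 5.22 CPM in dKO and at 3.72 and 8.78 CPM in tKO, on either side of dKO. ESAM was at 6.88 and 8.0 CPM in dKO and at 5.36 and 9.09 CPM in tKO. GPA33 was at 0 counts and VSIG1 had 1 or 2 counts per library. All adjusted p-values of these relatives other than PRKG2 were 0.996 in limma.

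**Figure D4:**
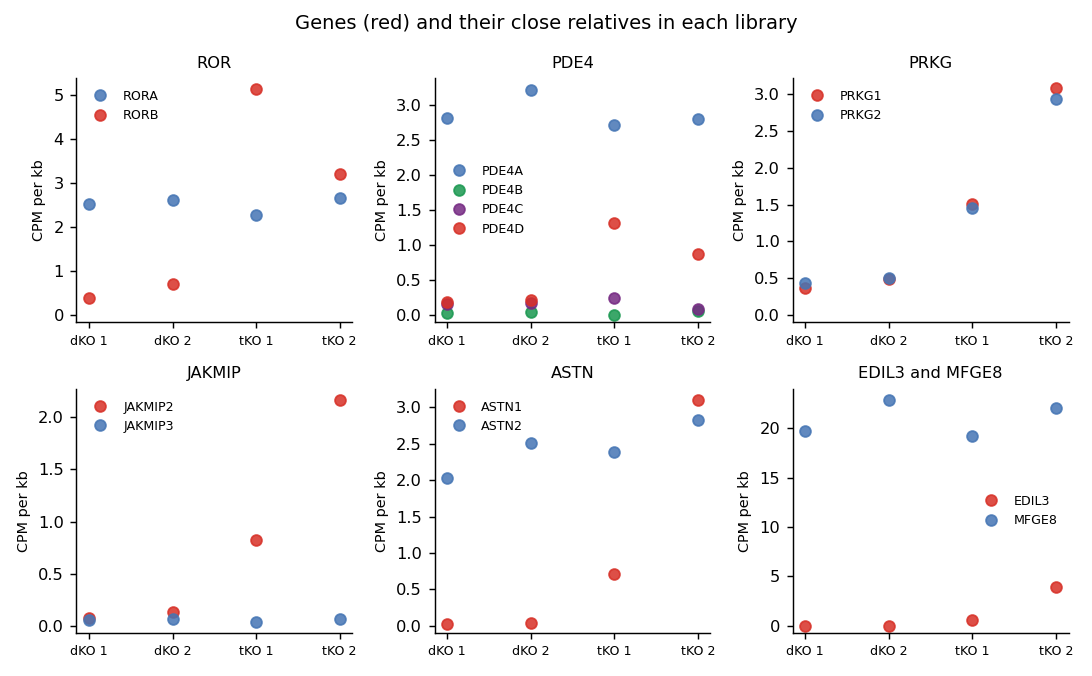
CPM per kb of canonical transcript in each of the 4 libraries for 6 gene families, with the picked gene in red and its relatives in other colours (relatives with at most 1 count over the libraries are not drawn). PRKG2 follows PRKG1 in each library, whereas RORA, PDE4A, ASTN2 and MFGE8 stay near their dKO levels.

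Other genes of cyclic AMP and cyclic GMP signalling were nearly flat. Of 44 listed genes 38 were tested, and limma, DESeq2 and edgeR called 0 (against 0.0132%, 0.165% and 0.00661% of all tested genes). An unadjusted limma p-value below 0.05 was found for 1 (against 3.55%). In both tKO libraries 1 was higher (2.63%, against 15.1% of all tested genes) and 4 were lower (against 16.3%). The median log2 fold change was -0.06 and the range -0.53 to 2.97. GNAS, the stimulatory G protein of adenylate cyclase, had a log2 fold change of -0.04 and the kinase anchor AKAP13 of 0.03. PRKAR2A, a regulatory subunit of protein kinase A that lies in the stretch of chromosome 3 low in tKO 2, had -0.53. The upper end was PDE1C, a calmodulin-dependent phosphodiesterase, with 1 and 0 counts in dKO and 17 and 15 counts in tKO (limma adjusted p = 0.449, not given an adjusted p by DESeq2). PDE1C exceeded 0.5 CPM, the level needed for testing, only in the tKO libraries. Once tested, it could therefore only be higher there.

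Among 27 genes of neuronal migration and adhesion, 23 were tested. Limma, DESeq2 and edgeR called 0 (against 0.0132%, 0.165% and 0.00661% of all tested genes). Unadjusted p-values below 0.05 were found for 4 (NRG1, NCAM1, ITGB1 and ITGB5), against 3.55% of all tested genes. In both tKO libraries 4 were higher (17.4%, against 15.1% of all tested genes) and 5 lower (against 16.3%). NRG1, a ligand of ERBB receptors, had 4 and 13 counts in dKO and 17 and 62 counts in tKO (log2 fold change 2.02 ± 0.69 SE, limma adjusted p = 0.996). NCAM1, a neural adhesion molecule, had 76 and 102 counts in dKO, 139 in tKO 1 and 412 in tKO 2 (log2 fold change 1.59 ± 0.48 SE, limma adjusted p = 0.996). The most abundant of the list, FLNA and PAFAH1B1, had log2 fold changes of -0.13 and 0.10. Of the subunits of the integrins that EDIL3 can bind, ITGAV had a log2 fold change of -0.26 and ITGB5 of -0.33, and ITGB3 had between 0 and 6 counts per library. ITGB1 (log2 fold change -0.66) lies in the stretch of chromosome 10 that was low in tKO 1.

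Neuronal markers did not move as a group. Of 26 listed genes 25 could be matched and 15 tested. Limma, DESeq2 and edgeR called 0 (against 0.0132%, 0.165% and 0.00661% of all tested genes), and 2 had an unadjusted p-value below 0.05 (against 3.55%). In both tKO libraries 2 were higher (13.3%, against 15.1% of all tested genes) and 3 lower (against 16.3%). The median log2 fold change was -0.11. SOX2, a stem and neural progenitor factor, was abundant throughout, between 661 and 875 CPM, and UCHL1 was between 449 and 492 CPM. SYP, a protein of synaptic vesicles, had 5.85 and 5.73 CPM in dKO, 8.41 CPM in tKO 1 and 13.5 CPM in tKO 2 (log2 fold change 0.87, limma adjusted p = 0.996). Several defining markers of neurons were at or near 0. NEUROG1, NEUROD1 and ELAVL4 were at 0 in all libraries, DCX had 2 counts in tKO 1 and 0 elsewhere, and RBFOX3 had between 4 and 9 counts per library. MAP2, a microtubule protein of dendrites, was transcribed, with a log2 fold change of -0.25. Other genes of the list were transcribed as well, among them ONECUT2 (132 to 142 CPM), NEUROG2 (16.8 to 38.5 CPM) and GAP43 (5.79 to 17.1 CPM). The list therefore holds both absent and transcribed markers.

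Of 14 glial markers 6 were tested, with 0 called by limma, DESeq2 or edgeR (against 0.0132%, 0.165% and 0.00661% of all tested genes). An unadjusted p-value below 0.05 was found for 0 (against 3.55%). GFAP was at most 0.611 CPM, and S100B and SOX10 were at 0. PDGFRA and SLC1A3 had log2 fold changes of -0.23 and -0.25, and AQP4 of 1.07. The summed level of the glial list was 195 and 198 CPM in dKO and 185 and 160 CPM in tKO.

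The 10 blood markers summed to between 0.271 and 0.498 CPM per library, 6 of them at 0 throughout, although the line comes from a leukaemia. Of the mesenchymal markers COL1A2, COL3A1 and PDGFRB were at 0, THY1 had a log2 fold change of -0.60 and VIM of -0.46, and the summed level was 606 and 560 CPM in dKO and 331 and 548 CPM in tKO, the low sum being that of tKO 1. VIM lies in the stretch of chromosome 10 that was low in that library. Of the epithelial markers EPCAM, KRT5 and KRT19 were at 0, KRT8 had a log2 fold change of -0.71, KRT18 of -0.13 and MUC1 of -0.06, and the summed level was between 21.9 and 26.5 CPM. Limma, DESeq2 and edgeR called 0 genes on these lists (against 0.0132%, 0.165% and 0.00661% of all tested genes). An unadjusted p-value below 0.05 was found for 1, THY1 (against 3.55%).

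Leaving out a tKO library moved these counts, because the remaining tKO library is then assumed to vary like the dKO pair. Without tKO 1, limma called 6 list genes, among them SYP, PRKG2, NCAM1 and NRG1, which were higher, and GAP43, which was lower. Without tKO 2 it called 3, among them PRKG2, which was higher, and ITGB1, which was lower.

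Genes beside the 7 were compared to see whether the differences extended along the chromosome. Of the 42 nearest tested genes, 3 on each side, limma, DESeq2 and edgeR called 0 (against 0.0132%, 0.165% and 0.00661% of all tested genes). An unadjusted p-value below 0.05 was found for 5 (against 3.55%). Their median log2 fold change was 0.05, with a range of -0.49 to 1.63, and 10 (23.8%, against 15.1% of all tested genes) were higher in both tKO libraries and 8 lower (against 16.3%). ANXA1, a neighbour of RORB that lies 1327 kb away, had the largest value, which came from tKO 2 (log2 ratio 3.81) and not from tKO 1 (-0.55). TMC1, on the same side, had a log2 fold change of 1.21 (limma adjusted p = 0.996). TRPM6, the tested gene nearest to RORB at 29.3 kb, was higher in both tKO libraries (log2 ratios to dKO 1.17 and 0.815). The 5 neighbours at an unadjusted p-value below 0.05 were TMC1, TRPM6, SCN3B and CSTF2T, higher in both tKO libraries, and GRAMD1B, lower in both.

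Within 5 Mb of each gene the median log2 ratio to dKO over neighbours with a mean CPM above 2 (12 to 71 genes) lay between -0.04 and 0.13 in tKO 1 and between -0.08 and 0.10 in tKO 2. The medians were near dKO levels, whereas single genes in the windows ranged from -4.25 to 3.81 in tKO 2. Without tKO 1, 4 of the 42 neighbours were called by limma (ANXA1, PPP2R2B, SCN3B and ABLIM3), and without tKO 2 there was 1 (TMC1).

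**Figure D5:**
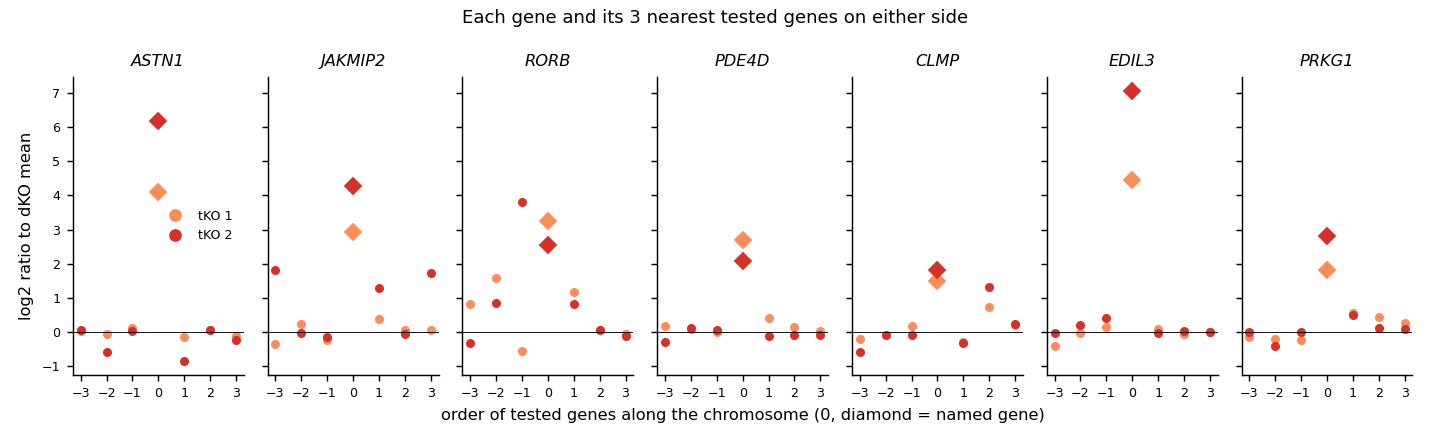
Log2 ratio to the dKO mean in tKO 1 (orange) and tKO 2 (red) for each of the 7 genes (diamonds, at 0) and for its 3 nearest tested genes on either side in chromosomal order (circles). Most circles lie near 0, and the highest circle, ANXA1 beside RORB, is high in tKO 2 only.

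Of 24 other annotated genes that overlap the 7, 17 were at 0 counts in all libraries and 1 was tested. This was CSTF2T, a gene on the other strand inside PRKG1 that encodes an RNA 3′-end processing factor of the testis type, with 1366 and 1186 counts in dKO and 1680 and 1610 counts in tKO (log2 fold change 0.54, limma adjusted p = 0.767). A pair of long noncoding RNAs on the other strand had too few counts to be tested. RORB-AS1 had 2 and 0 counts in dKO and 13 and 8 counts in tKO, and EDIL3-DT had 0 counts in both dKO libraries, 2 in tKO 1 and 15 in tKO 2. The higher of the tKO libraries was the same one as for RORB and for EDIL3. This did not hold for ENSG00000223502, a long noncoding RNA on the other strand of PRKG1. It had 0 and 1 counts in dKO, 5 in tKO 1 and 2 in tKO 2, whereas PRKG1 was higher in tKO 2. Counting used strand, and over all genes between 4.01% and 4.24% of gene reads in a library fell on the opposite strand. The part of such reads in these counts was not tested. PRKG1-AS1 had between 1 and 3 counts per library.

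The tested genes whose profile over the 4 libraries was most like the mean of the 7, by Euclidean distance between centred log2-CPM values, were NALCN (distance 0.969), CYSLTR1 (1.01), PDE1C (1.02), BMP3 (1.19) and VAV3 (1.32). Among the 7 this distance ran from 0.547 for JAKMIP2 to 2.73 for EDIL3. NALCN, a sodium leak channel of neurons, was at 0.0542 and 0.222 CPM in dKO and at 0.853 and 3.49 CPM in tKO, and spans 363 kb. PDE1C spans 677 kb and VAV3 394 kb, while CYSLTR1 spans 56.2 kb and BMP3 26.9 kb, the last below the median of tested genes. NALCN, CYSLTR1, PDE1C and BMP3 exceeded 0.5 CPM, the level needed for testing, only in the tKO libraries. Their direction was thus fixed once they were tested.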

How the data were processed

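Total RNA of 2 dKO and 2 tKO libraries, grouped by their titles, was made into stranded libraries of polyadenylated RNA. The authors trimmed reads with cutadapt (1.12), removed ribosomal RNA reads with bowtie (1.2), mapped the rest to GRCh37 (hg19) and counted them with STAR (2.5.2b) over GENCODE release 19 exons. The deposited values were raw counts per gene, not normalised, from uniquely mapped reads, so that reads shared by near-identical copies were lost. The column for the orientation of this kit was used. Reads assigned to no gene made up between 27.3% and 28.7% of a library and were left out. CPM were taken over library totals.

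The 7 genes and all lists were chosen with earlier results of these data known. A gene entered the tests if its CPM exceeded 0.5 in 2 or more libraries. Log2-CPM (prior count 2, TMM in edgeR 4.0.16, factors 0.99 to 1.01) were fitted with limma (3.58.1, R 4.3.3) with genotype as the only term and an intensity trend in the prior variance. Benjamini-Hochberg adjustment ran over all 15136 genes. A call needed an adjusted p under 0.05 with a log2 fold change beyond 1 in either direction. DESeq2 (1.42.0) and edgeR quasi-likelihood were alternatives, and the closing section gives all others. The fit was tested on simulated data. The study describes its replicates as independent. Whether the libraries of a group come from separate clones is not given in the sources used here, and with 2 per group p-values measure only the spread between these libraries.

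Symbols, positions and canonical transcript lengths came from GENCODE 44 lifted to GRCh37, matched for 97.5% of tested genes. Named were the 7 genes, all tested relatives, in each other list the 2 most abundant and the 2 with the largest fold change, overlapping tested genes, the 5 nearest profiles, and, of the neighbours, the 2 with the largest fold change. Other names in the text were added after values were seen, and some list genes are not reported here. Sequences are from RefSeq.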

Additional observations from a re-analysis of the deposited data

Results flagged for a closer look

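Reads on the strand opposite to RORB, from a count column that the comparisons do not use, numbered 1 and 2 in the dKO libraries, 24 in the first tKO library and 9 in the other, and were thus above the dKO level in both tKO libraries. They were picked out because of this order. They made up 1.43%, 1.60%, 2.89% and 1.80% of the stranded reads of the gene, each below the share over all genes of the same library (4.01% to 4.24%). RORB-AS1, annotated on that strand, was high in the same libraries. Whether these reads come from it or from reads of RORB given the wrong strand was not tested. None of the other 6 genes had more such reads in both tKO libraries than in both dKO libraries.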

How the results depend on the processing

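The log2 differences of the 7 genes kept their sign under each alternative in which the gene was kept, and their median of 2.92 ran from 2.5 to 3.33 when 1 library was left out. The sign follows from the rule that chose the genes, so that it was kept is a description and no support. EDIL3 and ASTN1 were not kept without either tKO library, nor was EDIL3 at CPM above 5. The difference of EDIL3 was 7.88 with a prior count of 0.25 and that of CLMP 1.84 without tKO 1. The number of genes called by limma, 2, was 25 with DESeq2, 13 with the replicate number as a block, 1 at CPM above 5, 1 with edgeR, 1 without a trend, 1 with unstranded counts and 0 with no filter. It ran from 0 to 480 when 1 library was left out (0 without either dKO library, 175 without tKO 2, 480 without tKO 1), and with 1 tKO library that sample is assumed to vary like the dKO pair. On the fixed lists the count of 0 became 1 with DESeq2 and ran from 0 to 6, and among neighbours it ran from 0 to 4, when 1 library was left out. With the replicate block the counts on the lists and among neighbours stayed at 0. Same-numbered libraries deviated together with a correlation of 0.0581 over genes, so the numbers were not taken to pair them. The 2290 genes higher in both tKO libraries became 3741 with no filter, of more genes tested, and 4076 to 5672 when 1 library was left out, where fewer libraries are compared. The median percentile of the span of the 7 genes was 96.0, and 95.8 among genes with a mean CPM above 5. The cause was not tested for the changes with the test, the filter, the strand column or the block.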

Other observations

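The share of genes over 300 kb that were over 2-fold higher in both tKO libraries was also taken within expression classes, a choice made after the data had been seen. It was 19 of 354 (5.37%) among genes with a mean CPM of 1 to 30, which is the range of the 7 genes, and 10 of 495 (2.02%) above a mean CPM of 5. EDIL3, ASTN1, PDE4D and PRKG1 are counted in both of these shares and were chosen by the same order of levels. The shares are therefore a description only. In the same classes the share lower over 2-fold in both was 1.69% and 0.404%. Among genes under 10 kb with a mean CPM of 1 to 30 it was 0.557% higher and 0.607% lower.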
